A study of Homo sapiens with 2 samples.

Results

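CAPSL, DCC, DDC, FLG2, MAP1S, NAT8, TP63, DQX1, RPEL1 and IL2RB are 10 protein-coding genes, of 20037 examined, at whose outer end chromatin was far more accessible in cells infected with sh-VNGD, a short hairpin directed at Vanguard (VNGD), a long non-coding RNA, than in cells infected with the control hairpin sh-ctrl, or was called accessible with sh-VNGD alone. The assay was ATAC-seq, which reads open DNA through the cuts of the transposase Tn5, in U2OS, an established human osteosarcoma line grown in medium with serum. Each group was 1 library of infected cells, so no difference below has a replicate check, no test was possible and every interval covers counting error only. The study's title places Vanguard in the response to glucose deprivation and in DNA repair, and the labels give no glucose treatment for these libraries. The knockdown itself cannot be checked in DNA accessibility data.

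The members were chosen from these same libraries by their gene-end signal. The gene-end values below are therefore a description and support nothing. What the choice did not use is where each peak lies relative to the gene's start and what the remaining peaks did from 50 kb before to 50 kb after each gene. Those peaks show whether a single site or a whole neighbourhood differed. The peak lists hold no RNA, so the tissue restriction of these genes was not measured. MAP1S is known to be broadly expressed and is no tissue-specific gene.

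Most of the 10 genes are known from tissues other than bone. CAPSL encodes a calcium-binding EF-hand protein, and TP63 encodes the p53-family factor that governs stratified epithelium. FLG2 encodes filaggrin-2, a protein of the cornified skin layer. DCC encodes the netrin receptor that steers growing axons, and DDC the decarboxylase that makes dopamine and serotonin. NAT8 encodes an acetyltransferase of kidney and liver that makes mercapturates, and IL2RB the beta chain shared by the receptors for interleukin-2 and interleukin-15. MAP1S encodes a microtubule-associated protein that binds LC3, the autophagosome mark. DQX1 encodes a DEAQ-box protein related to DEAH-box RNA helicases, and RPEL1 is an intronless relative of RPE, an epimerase of the pentose phosphate pathway. A gene silent in a cell line often has a closed promoter, and a peak near a gene can also mark an enhancer of another gene.

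Values are pileups, the number of sequenced tags that cover a peak's summit. After repeats of a position were removed, 22931980 sh-ctrl tags and 31326715 sh-VNGD tags were kept, the repeats being 56% and 35% of the tags. Scaled to kept tags, the median of 13917 genes with a ratio lay at a log2 ratio of −0.45, which in raw tags means equal pileups. Ratios below are relative to that median, so the fold of a peak is simply one pileup over the other. Summed values are relative to the median of the same sums over 15301 genes, which was −0.38. Scaled to kept tags without centring, a gene-end value is 0.45 lower, and the members with a ratio then ran from 1.09 at TP63 to 1.58 at CAPSL. Of all genes with a ratio, 1.77% were at least 2-fold above the median (246 genes) and 0.589% at least 2-fold below it (82 genes). Without this centring the split was 38 genes above and 591 below. The counting interval lay wholly above the median for 4.23% of genes and wholly below it for 4.45%. All 7 members with a ratio are among the 246 and had such an interval, since they were chosen for it.

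The promoters of 4 genes with a peak within 1000 bp of a tabulated start, and the inner promoter of DDC as a contrast, are printed so that the letters next to each start can be read beside its peak. Each is the 250 bases before a start site in the RefSeq promoter table of GRCh38.p14, 5′ to 3′ along the gene. Capitals mark matches, on either strand, to 9 motifs. These were the AP-1 motif with the letters TGACTCA, the TATA box with TATAAA, the CCAAT box by its own letters and the GC box with GGGCGG. Further motifs were the CRE with TGACGTCA, the RUNX motif with TGTGGT and the TEAD motif with GGAATG. The last were an E-box with the letters CACGTG, and another E-box form, searched separately, with CAGCTG. None of the printed matches overlap.
CAPSL, chr5:35938780-35939029, minus strand: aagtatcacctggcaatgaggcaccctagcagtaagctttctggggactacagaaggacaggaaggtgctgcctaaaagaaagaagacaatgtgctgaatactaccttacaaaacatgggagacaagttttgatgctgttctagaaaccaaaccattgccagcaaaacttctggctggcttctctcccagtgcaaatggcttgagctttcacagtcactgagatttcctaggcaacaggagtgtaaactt
DCC, chr18:52339947-52340196, plus strand: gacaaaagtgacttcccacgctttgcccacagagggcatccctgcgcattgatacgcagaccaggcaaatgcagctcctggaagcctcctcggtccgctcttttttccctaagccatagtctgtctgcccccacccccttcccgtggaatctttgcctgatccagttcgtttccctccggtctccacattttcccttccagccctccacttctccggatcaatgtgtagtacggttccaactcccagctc
DQX1, chr2:74526232-74526481, minus strand: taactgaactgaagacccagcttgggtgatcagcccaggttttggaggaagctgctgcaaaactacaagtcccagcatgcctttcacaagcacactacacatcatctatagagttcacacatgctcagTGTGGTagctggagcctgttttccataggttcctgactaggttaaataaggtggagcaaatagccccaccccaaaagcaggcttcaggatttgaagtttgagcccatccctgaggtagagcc
MAP1S, chr19:17719230-17719479, plus strand: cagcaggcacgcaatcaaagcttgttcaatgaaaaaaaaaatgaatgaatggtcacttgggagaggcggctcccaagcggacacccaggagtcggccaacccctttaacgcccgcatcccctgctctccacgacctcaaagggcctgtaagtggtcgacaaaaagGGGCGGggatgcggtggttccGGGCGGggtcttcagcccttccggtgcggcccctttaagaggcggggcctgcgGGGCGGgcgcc
DDC, chr7:50561072-50561321, minus strand: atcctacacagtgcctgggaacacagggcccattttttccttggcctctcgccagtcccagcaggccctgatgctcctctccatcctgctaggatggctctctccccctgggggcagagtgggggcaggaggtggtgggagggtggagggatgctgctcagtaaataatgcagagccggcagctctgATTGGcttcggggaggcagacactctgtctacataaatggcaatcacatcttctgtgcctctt

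The DCC stretch holds the summits of both libraries and the DQX1 stretch that of sh-VNGD. The CAPSL stretch is only partly covered by its peak and holds neither summit, and the MAP1S stretch lies wholly outside its peak. The CAPSL and DCC stretches hold none of the 9 motifs. DQX1 has a RUNX match from base −122, counted back from the start, a motif found in 11% of 35116 promoters of this length. MAP1S has 3 GC boxes, from −85, −64 and −11, and 42.6% of promoters hold at least 1. The inner DDC promoter has a reversed CCAAT box from −63, and 32% of promoters hold that motif. No AP-1, TATA box or CRE match was found in any of the 10 stretches tabulated for 8 members. RPEL1 and IL2RB were not matched in the table. The GC content was 45.2% at CAPSL, 56% at DCC, 48.8% at DQX1, 61.6% at MAP1S and 58% at the inner DDC start, against a median of 58% for all promoters.

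The higher signal lay at a promoter in only part of the set. The gene's outer end on the start side carried the peak in 5 of the 8 members whose strand was tabulated, namely CAPSL, DCC, MAP1S, TP63 and DQX1. An outer end on that side is not always a tabulated start. TP63 had no peak within 1000 bp of its tabulated start, and the MAP1S summits lay 707 bp (sh-VNGD) and 871 bp (sh-ctrl) past its own. In DDC, FLG2 and NAT8 the peak lay at the far end of the gene, where transcription stops. Among all genes with a ratio and a tabulated strand the far end was used by 10.9%, among those at least 2-fold above by 17.4%, among those at least 2-fold below by 33.9% and among those called with sh-VNGD alone by 43.1%. The 3 far-end members each lacked any peak within 1000 bp of their outermost start in either library. Thus for DDC, FLG2 and NAT8 the gene-end value describes a distal site and not the promoter.

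**Figure D1:**
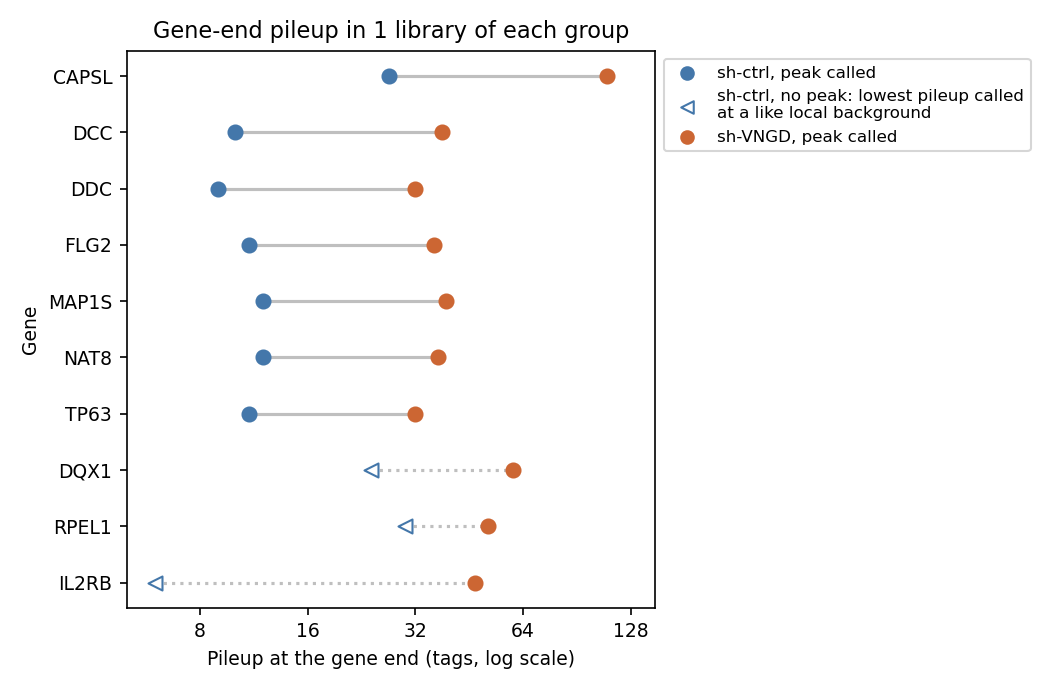
Pileup at the gene end in tags on a log scale, with 1 row per gene, blue for the sh-ctrl library and orange for the sh-VNGD library. Open triangles stand for genes without a sh-ctrl peak. They mark the lowest pileup called in sh-ctrl at a local background like that of the nearest region called in both libraries. This pileup was 24 tags for DQX1, 30 for RPEL1 and 6 for IL2RB, and it is no bound on the sh-ctrl tags at the gene end.

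CAPSL had the highest ratio among genes with at least 30 tags in either library, and the tallest sh-ctrl peak of the members. Its region on chromosome 5, 35938504 to 35938929, covers both tabulated starts of the gene, with the sh-VNGD summit 74 bp downstream of the outer and at −83 bp from the inner one. The pileup was 27 tags in sh-ctrl against 110 in sh-VNGD, a relative log2 ratio of 2.03 (95% Clopper-Pearson interval 1.41 to 2.69). By the authors' fold enrichment over local background the peak stood at 11.7 in sh-ctrl and 23.3 in sh-VNGD. A pair of CCAAT boxes lies at −115 and −75 from the inner start, close to the summits. This was a promoter peak with about 4 times the tags.

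Around CAPSL the other peaks and the local tags read differently. The tags within 10 kb of the summit were at most 70.1 in sh-ctrl against 188 in sh-VNGD, a relative log2 ratio of 1.25, or 0.62 without the summit's own tags. Its window held 10 other shared regions, whose summed pileup was 321 tags in sh-ctrl against 351 in sh-VNGD, a relative log2 ratio of 0.06 (−0.16 to 0.28). Inside the gene, the peaks from 35912121 and 35924850 had 65 and 63 tags in sh-ctrl and 68 and 70 in sh-VNGD. Downstream in the gene the peak from 35922490 had 58 and 43. The other site with the largest difference lay 15 kb beyond the start, in the neighbouring gene UGT3A1, at 35954298, with 11 tags in sh-ctrl against 31 in sh-VNGD (relative log2 ratio 1.49). The lowest ratio was that of the peak from 35963352, with 47 and 30 tags (−0.65). The CAPSL promoter thus stood apart from the stronger peaks within its own gene, while 2 of the 10 other shared regions were also at least 2-fold higher.

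DCC had its higher peak just before the start of a gene 1196 kb long. The region on chromosome 18, 52339797 to 52340172, ends 25 bp before the gene bound, and its summits lay at −235 bp from the start in sh-ctrl and −220 bp in sh-VNGD. The pileup was 10 tags in sh-ctrl against 38 in sh-VNGD, a relative log2 ratio of 1.93 (0.89 to 3.10). The sh-ctrl peak was weak, with a −log10 q of 4.62 against 33.3 in sh-VNGD.

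Along DCC many other sites leaned the same way. Of 30 other shared regions, 23 lay above the gene-end median, 4 below it and 5 at least 2-fold above it. Of all shared regions in the genome, 63.9% lay above that median and 5.67% at least 2-fold above it. Their summed pileup was 461 tags in sh-ctrl against 639 in sh-VNGD, a relative log2 ratio of 0.40 (0.23 to 0.58), and 590 of 15301 genes had a higher value. The largest was a peak from 52409773, 70 kb into the gene, with 16 tags in sh-ctrl against 43 in sh-VNGD (1.43). The window's strongest region, from 53511405 near the other end of the gene, had 82 and 92 tags (0.17). A further 47 regions were called in sh-VNGD only and 14 in sh-ctrl only, of 91 other regions and of at most 26 tags in each case. Over all regions of the genome the shares were 41.2% and 16.5%. Over all other peaks of the window, the called length was 21951 bp in sh-VNGD and 12662 bp in sh-ctrl, and the mean pileup was 16.9 and 14.4 tags. The DCC window was thus higher than that of the median gene. The start peak exceeded every other shared region of it, an order that the choice of DCC by its end ratio favours.

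MAP1S, with 3 GC boxes before its start, had no peak over that start in either library. Its peak on chromosome 19, 17720017 to 17720525, lay inside the gene, with the summit 707 bp past the start in sh-VNGD and 871 bp past it in sh-ctrl. The pileup was 12 tags in sh-ctrl against 39 in sh-VNGD, a relative log2 ratio of 1.70 (0.74 to 2.77). With a limit of 500 bp in place of 1000 bp, MAP1S had no gene-end region at all.

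The surroundings of MAP1S were slightly higher in sh-VNGD. The 13 other shared regions summed to 428 tags in sh-ctrl against 521 in sh-VNGD, a relative log2 ratio of 0.21 (0.03 to 0.40), with 9 above the gene-end median and 3 below. Of all shared regions, 63.9% lay above that median. The neighbouring gene FCHO1, which encodes an endocytic adaptor, had 58 tags at its start in sh-ctrl and 87 in sh-VNGD (0.58). Upstream, the peak from 17703794 had 16 and 35 tags (1.13). The window's strongest peak, from 17778141, had 100 and 99 tags. The lowest ratio was that of the region from 17688217 at the start of UNC13A, a gene of synaptic vesicle release, with 25 and 21 tags (−0.25). In windows of 25 kb the neighbourhood of MAP1S met the criterion for a regional difference given below, with 3 other shared regions that summed to 87 and 137 tags (0.58).

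TP63 was higher at its outer end, and lower at the stronger peaks far from that end. The end region on chromosome 3, 189595896 to 189596852, had 11 tags in sh-ctrl against 32 in sh-VNGD, a relative log2 ratio of 1.54 (0.51 to 2.68). This outermost bound is far from the 1 start given in the promoter table, at 189631389, from which the sh-VNGD summit lies at −34967 bp, and that start had no peak within 1000 bp in either library.

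Within 50 kb of the end region there was 1 other shared region, with 22 tags in sh-ctrl against 24 in sh-VNGD, beside 5 regions of sh-VNGD only and 1 of sh-ctrl only. The lower sites lay farther off, inside and beyond the gene. The 17 other shared regions summed to 618 tags in sh-ctrl against 407 in sh-VNGD, a relative log2 ratio of −0.67 (−0.86 to −0.49), and only 6 of 15301 genes had a lower value. The peak from 189756320 inside the gene had 93 tags in sh-ctrl against 21 in sh-VNGD (−2.15). A pair of peaks from 189841748 and 189842707 had 48 and 40 tags in sh-ctrl but 17 and 15 in sh-VNGD. Beyond the gene, the peak from 189944207 had 81 and 37 tags (−1.13). An exception was the peak from 189858167, with 37 tags in sh-ctrl against 47 in sh-VNGD. The highest ratio was that of the peak from 189923790, with 13 and 21 tags (0.69). In all, 4 of the 17 shared regions were at least 2-fold below and none at least 2-fold above. Of all shared regions in the genome, 1.75% were at least 2-fold below and 5.67% at least 2-fold above. Of 240 genes at least 2-fold above at the end, summed other regions at least 0.5 log2 units below the median of all genes were found at 2, TP63 and H1-8, a linker histone gene of oocytes. The share of all genes with summed regions that low was not counted, so the 2 have no background to be read against. H1-8 was singled out after its values were seen.

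**Figure D2:**
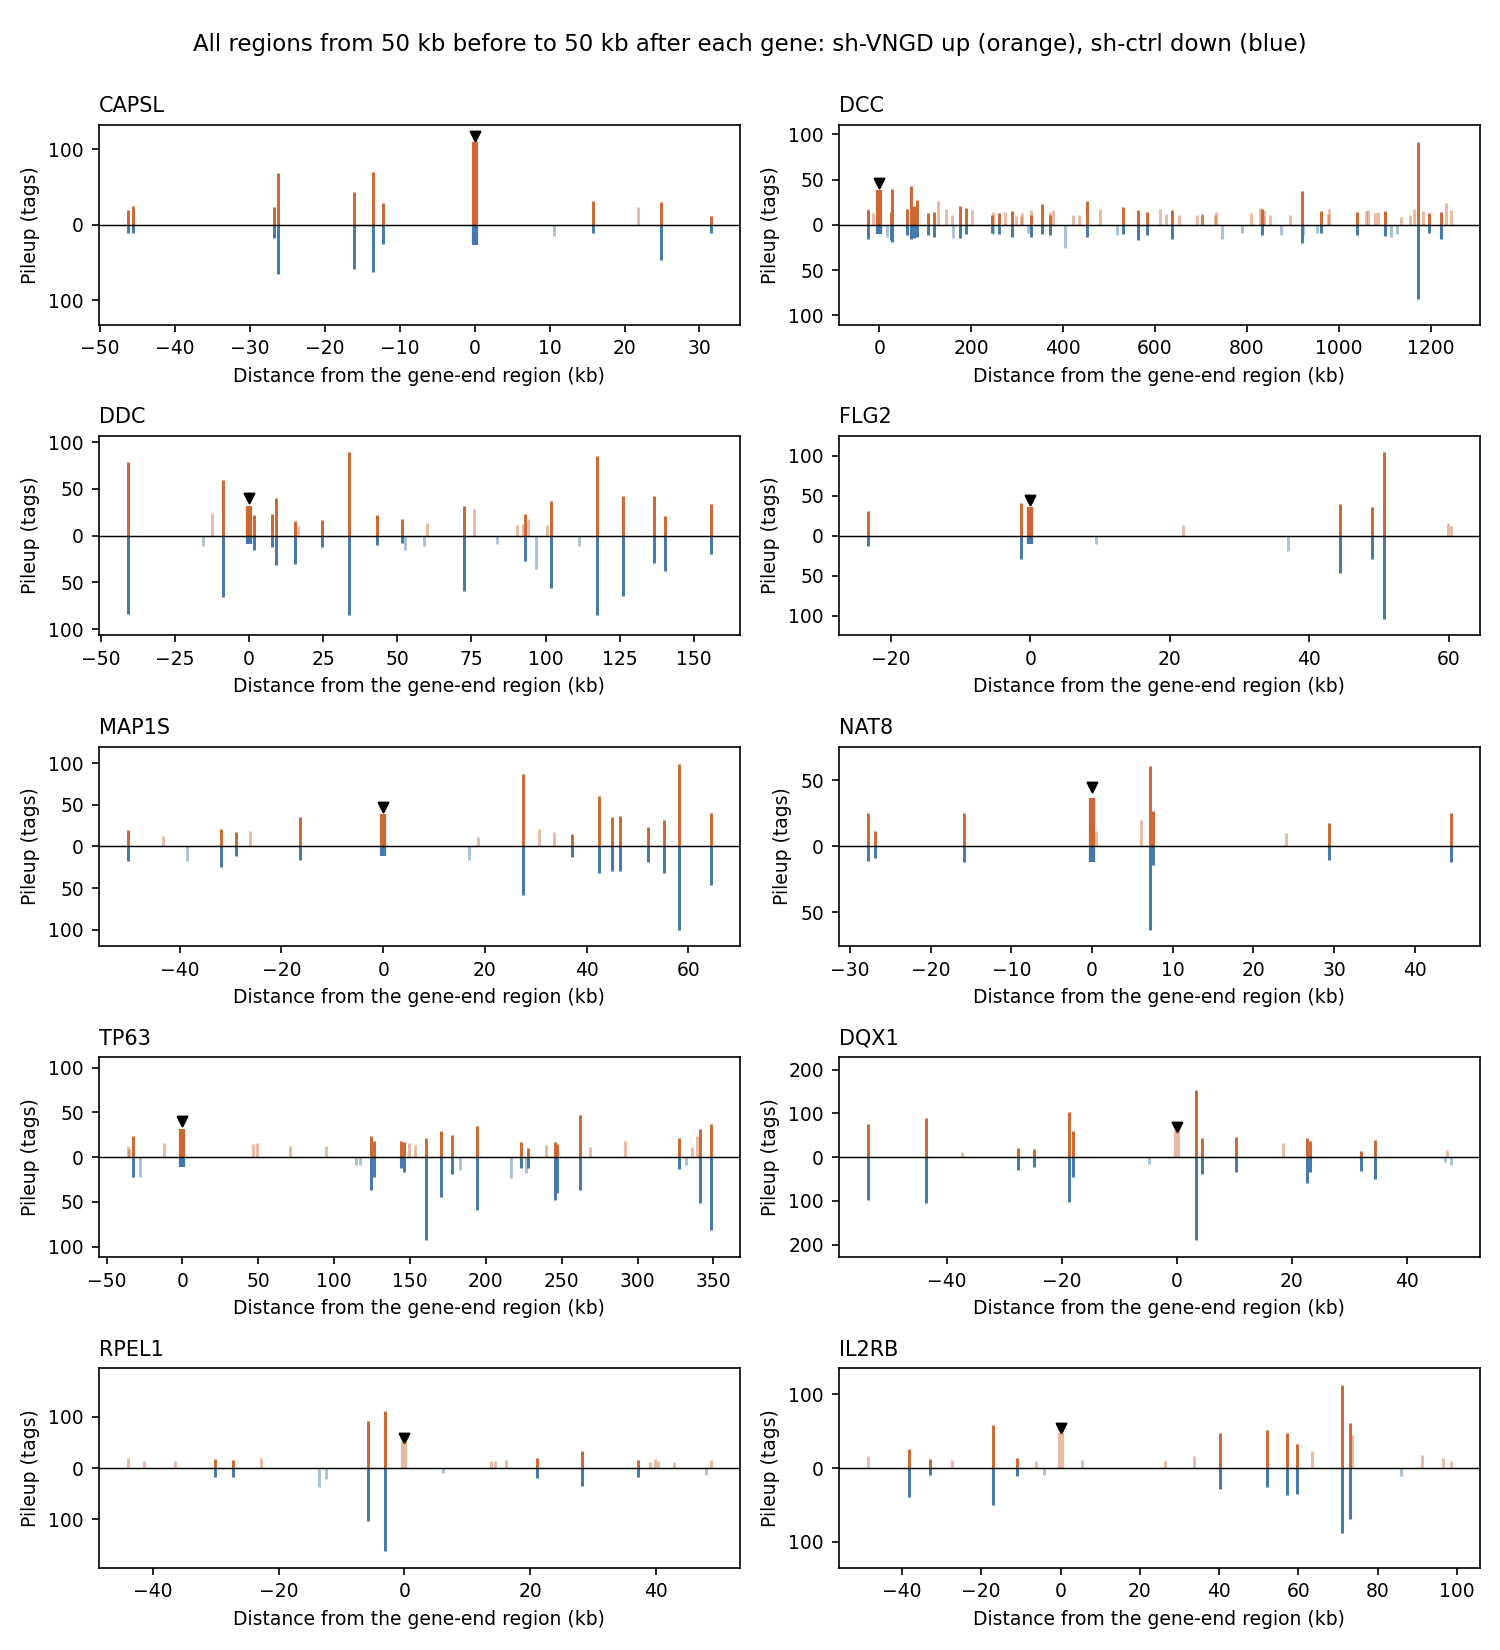
Pileup in tags of every region from 50 kb before to 50 kb after each gene against its distance in kb from the gene-end region, with sh-VNGD drawn upward in orange and sh-ctrl downward in blue. Pale bars are regions called in 1 library only, the thick bar under the arrowhead is the gene end, and a reader should see the tall sh-ctrl bars within TP63 that are shorter in sh-VNGD and the near-symmetric bars around CAPSL.

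DDC carried its higher peak at the far end, while the peak at its inner start was lower. The far-end region on chromosome 7, 50458953 to 50459430, had 9 tags in sh-ctrl against 32 in sh-VNGD, a relative log2 ratio of 1.83 (0.73 to 3.08). The tabulated inner start, at 50561071, lay 101932 bp from the far-end summit under a region from 50560815 to 50561376, with 56 tags in sh-ctrl against 37 in sh-VNGD (−0.60). The promoter printed above for DDC thus belonged to a region with fewer tags in sh-VNGD. The outer start had no peak within 1000 bp.

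Other regions around DDC went both ways. The 18 other shared regions summed to 732 tags in sh-ctrl against 701 in sh-VNGD, a relative log2 ratio of −0.13 (−0.28 to 0.02), with 9 above and 8 below the gene-end median. The peak from 50492692 was near equal, with 85 and 89 tags. That from 50474361 had 30 and 16 tags (−0.91), and that from 50502243 had 10 and 22 (1.14). FIGNL1, a DNA repair ATPase gene next to the far end, had 66 and 59 tags at its start (−0.16). With sh-ctrl alone, a region of 36 tags from 50555817 was called.

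FLG2 lies in the epidermal differentiation complex, a cluster of skin barrier genes on chromosome 1. Its far-end region, 152348477 to 152348774, had 11 tags in sh-ctrl against 36 in sh-VNGD, a relative log2 ratio of 1.71 (0.70 to 2.83). A neighbouring region from 152347192, 959 bp away, had 29 and 41 tags (0.50), and took the place of the end region when the limit was 2000 bp. The filaggrin gene FLG, next to FLG2, had 13 tags at its start in sh-ctrl and 31 in sh-VNGD, a relative log2 ratio of 1.25 (0.28 to 2.31). CRNN, the cornulin gene on the other side, had a far-end peak of 16 tags in sh-VNGD only. The peak from 152392832 had the lowest ratio, with 47 and 39 tags (−0.27). The window's strongest peak, from 152398879, had 104 tags in each library. The 5 other shared regions summed to 222 tags in sh-ctrl against 251 in sh-VNGD, a relative log2 ratio of 0.11 (−0.16 to 0.37).

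NAT8, a gene of 1.7 kb, came nearest to a regional difference. Its far-end region on chromosome 2, 73640441 to 73640786, had 12 tags in sh-ctrl against 37 in sh-VNGD, a relative log2 ratio of 1.62 (0.65 to 2.70). Of the 7 other shared regions, 6 lay above the gene-end median and 3 were at least 2-fold above it, against 63.9% and 5.67% of all shared regions. The peaks from 73612649, 73624651 and 73684935 had 11, 12 and 12 tags in sh-ctrl against 25 in sh-VNGD in each case. The summed pileup was 131 tags in sh-ctrl against 193 in sh-VNGD, a relative log2 ratio of 0.49 (0.16 to 0.82), and 274 of 15301 genes had a higher value. The exception was the strongest peak of the window, from 73647554, with 63 and 61 tags. With sh-VNGD alone 3 further regions were called, and none with sh-ctrl alone.

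The end peaks of DQX1, RPEL1 and IL2RB were called with sh-VNGD alone, which held for 4.93% of all genes, while 2.93% had one with sh-ctrl alone. Absence from a list leaves the tags at a site unknown, because a site must exceed its local background to be called. The lowest pileup called in sh-ctrl, among peaks with local tags within 10% of those at the nearest shared region, is used here as the height below which no like site was called. It is no upper bound, since an uncalled site can have more tags than the lowest called one. In sh-VNGD the local tags were 652, 414 and 146 at the ends of DQX1, RPEL1 and IL2RB. At the nearest shared regions they were 629, 607 and 95.8. The folds to that height therefore do not measure the difference at these ends.

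DQX1 sat beside much stronger sites. Its region on chromosome 2, 74526241 to 74526486, had 60 tags and a fold enrichment of only 4.34 in sh-VNGD, with the summit 138 bp upstream of the DQX1 start. It lies between DQX1 and the far end of AUP1, a gene of protein degradation, which has its bound at 74526652. The nearest shared region, at 74529162 to 74530103, covers the starts of AUP1 and of HTRA2, a mitochondrial protease gene, with 190 tags in sh-ctrl against 153 in sh-VNGD (−0.31). At its local background of 602 tags per 10 kb, no sh-ctrl peak under 24 tags was called. Against that height the DQX1 pileup was 2.5-fold. The 13 other shared regions were slightly lower, with 834 tags in sh-ctrl against 743 in sh-VNGD, a relative log2 ratio of −0.24 (−0.38 to −0.09). M1AP, a gene of male meiosis at the edge of the window, had 31 and 14 tags at its far end (−1.15). The highest ratio of the window was that of the peak from 74536605, with 33 and 46 tags (0.48).

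RPEL1 had the smallest ratio to that height. Its peak on chromosome 10, 103244734 to 103244972, lay 915 bp outside the gene and had 51 tags and a fold enrichment of 5.60 in sh-VNGD. The nearest shared region, from 103241329, had 163 tags in sh-ctrl against 112 in sh-VNGD, and at its local background the lowest sh-ctrl pileup called was 30 tags. Against that height the RPEL1 pileup was 1.7-fold, which is no gene-end ratio and cannot be set against the 2-fold used here. None of the 7 other shared regions lay above the gene-end median, 6 lay below and 1 was equal. Among those of 20 tags or more the highest ratio was that of the peak from 103272890, with 35 and 34 tags (−0.04). They summed to 373 tags in sh-ctrl against 305 in sh-VNGD, a relative log2 ratio of −0.36 (−0.58 to −0.14). Another 12 regions of 12 to 20 tags were called in sh-VNGD only, and 4 of 10 to 38 tags in sh-ctrl only, of 23 other regions. Over all regions the shares were 41.2% and 16.5%.

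IL2RB had a peak with no other region above 11 tags within 10 kb. Its region on chromosome 22, 37126435 to 37126761, lies inside the gene near its lower bound and had 47 tags and a fold enrichment of 12.2 in sh-VNGD. The nearest shared region was 10755 bp away and had local tags at the genome-wide background, where sh-ctrl peaks of 6 tags were called. Against that height the IL2RB pileup was 7.83-fold. Within the gene, the peak from 37166408 had 28 tags in sh-ctrl against 47 in sh-VNGD (0.75). Just beyond it, the peak from 37178336 had 26 and 52 tags (1.00, 0.29 to 1.74), the highest ratio among shared regions of the window. The lowest was that of the peak from 37088122, with 39 and 26 tags (−0.58). The 10 other shared regions summed to 392 and 464 tags, a relative log2 ratio of 0.17 (−0.02 to 0.37), with the strongest, from 37196949 inside the C1QTNF6 gene, at 88 and 113 tags. Of the 23 regions other than the end, 11 were called in sh-VNGD only and 2 in sh-ctrl only, against 41.2% and 16.5% of all regions. The tallest of the 11, from 37199914, had 45 tags and was nearly as tall as the end peak.

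A single-peak difference was separated from a regional one by 2 readings. The first was the summed pileup of the other shared regions, and the second the tags in the 10 kb around the gene-end summit, recovered from the authors' fold enrichment. For DQX1, RPEL1 and IL2RB, which had no sh-ctrl peak at the end, the second was read at the nearest shared region instead, 2676, 2670 and 10755 bp away. A difference was called regional where both lay at least 0.5 log2 units above the median of all genes, mixed where 1 did and single-peak where neither did. At least 3 other shared regions were required, which all 10 members had. None of the 10 was regional, 5 were mixed (CAPSL, DDC, FLG2, MAP1S and NAT8) and 5 single-peak (DCC, TP63, DQX1, RPEL1 and IL2RB). For DCC and IL2RB both libraries stood at the genome-wide background in the second reading, so their class rests on the first alone. For TP63 sh-ctrl stood at that background, with at most 70.1 tags against 102 in sh-VNGD. Its second reading of 0.37 is therefore a minimum, and whether TP63 was single-peak or mixed is not settled. Over all 15301 genes assigned, 0.333% were regional, 6.21% mixed and 93.5% single-peak. Among the 240 genes at least 2-fold above at the end the shares were 3.33%, 42.1% and 54.6%. Of the 7 members in that set, 5 were mixed and 2 single-peak. The first reading alone was met by 1.64% of genes and by none of the members, and the second by 5.23% of genes and by 5 members. In these 5 the second reading includes the tags of the end peak by which they were chosen, so the choice favours that count. With peaks of 1 library included, the first reading was met by DCC at 0.70 (650 against 1303 tags), which became mixed, and by NAT8 at 0.54, which became regional.

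The mixed class came from the tags within 10 kb in all 5 genes. FLG2 had 92 tags within 10 kb with sh-ctrl against 165 with sh-VNGD, and MAP1S had 130 and 226. For CAPSL, DDC and NAT8 the sh-ctrl value stood at the genome-wide background of 70.1 tags, so the true count was at most that, and sh-VNGD had 188, 153 and 128 tags. These counts include the tags of the end peak itself. Without the summit's own tags, a reading chosen after seeing the data, relative log2 values were 0.62 for CAPSL, 0.75 for DDC, 0.44 for FLG2, 0.43 for MAP1S and 0.41 for NAT8. By these values CAPSL and DDC alone remained mixed. Those of CAPSL, DDC and NAT8 are minima, since their sh-ctrl counts were at most the background, so NAT8 may have remained mixed too. Tags of the end peak that do not cover its summit stay in these values, so they are not free of the choice. At the substitute region of DQX1 the local tags numbered 602 (sh-ctrl) against 629 (sh-VNGD), and at that of RPEL1 765 and 607. At the ends of DQX1, RPEL1 and IL2RB themselves sh-VNGD had 652, 414 and 146 tags, against a genome-wide background of 95.8, and the sh-ctrl values there are unknown.

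**Figure D3:**
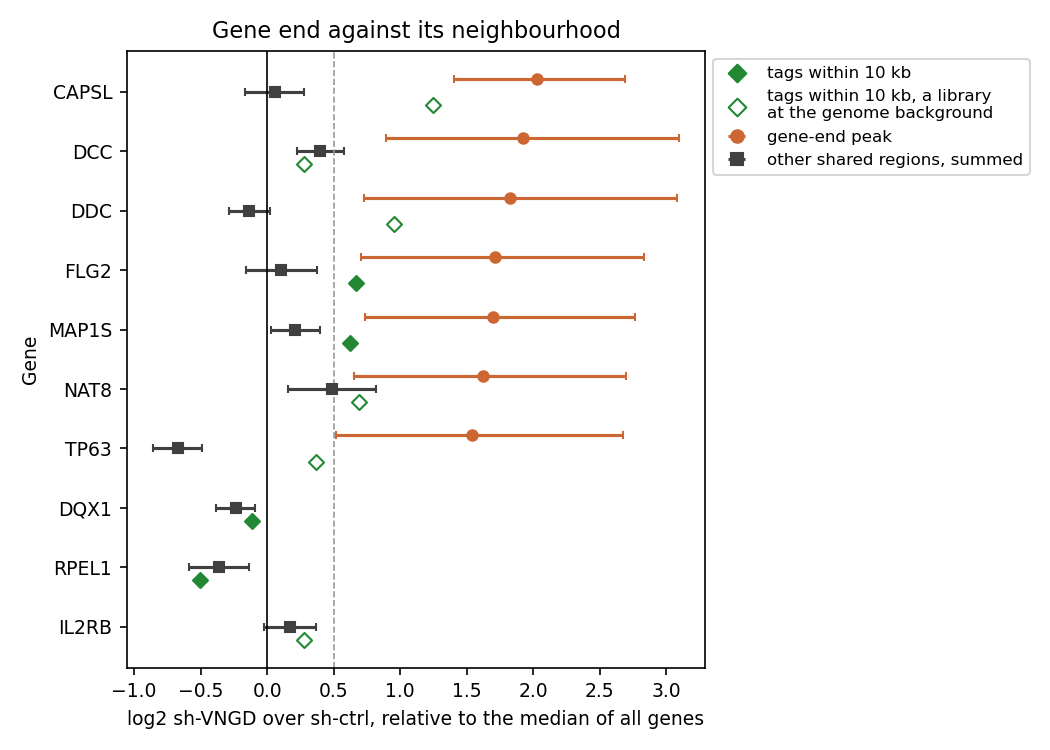
The log2 ratio of sh-VNGD over sh-ctrl relative to the median of all genes, with 1 row per gene, for the gene-end peak (circles), the summed other shared regions of the window (squares) and the tags within 10 kb (diamonds, open where a library was at the genome-wide background, and read at the nearest shared region for DQX1, RPEL1 and IL2RB). Bars are 95% counting intervals and the dashed line is the threshold of 0.5. Each of the 7 circles lies right of its square, which the choice of members by end ratio favours. The TP63 square is lowest at −0.67.

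**Figure D4:**
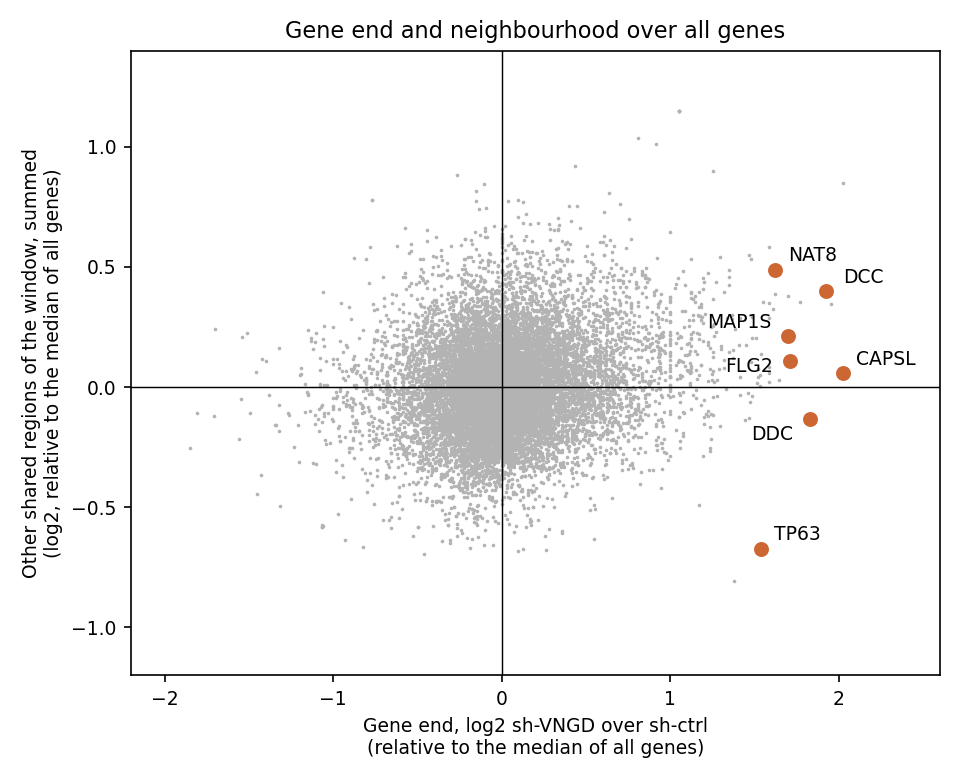
Each grey point is 1 of 13750 genes with a gene-end ratio and at least 3 other shared regions, plotted by the relative log2 ratio of its end and of its summed other regions. The 7 labelled members lie at the right edge by choice, and vertically they run from −0.67 for TP63 to 0.49 for NAT8.

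Over the 10 windows together, 278 regions other than the ends were examined. Of these 130 were shared, 107 (38.5%, Wilson 95% interval 33.0 to 44.3) were called in sh-VNGD only and 41 (14.7%, 11.1 to 19.4) in sh-ctrl only. Across the genome the shares were 41.2% and 16.5%, with 42.4% shared, and both values fall inside the intervals of the windows. Above the gene-end median lay 77 of the 130 shared regions, or 59.2%, against 63.9% of all shared regions. At least 2-fold above it were 15, or 11.5%, against 5.67% of all, and 5, or 3.85%, were at least 2-fold below it, against 1.75%. The 5 were 4 regions of TP63 and 1 of DQX1. DCC alone gave 30 of the 130 regions, and regions of 1 locus are not independent.

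In 6 windows the summed pileup was higher than for the median gene and in 4 it was lower. The higher were those of NAT8, DCC, MAP1S, IL2RB, FLG2 and CAPSL, and the lower those of DDC, DQX1, RPEL1 and TP63. For each of the 7 members with a ratio, the end exceeded every other shared region of its window, and the next highest were 1.49 at CAPSL and 1.43 at DCC. The members were chosen for high end ratios, so this order was largely set by the choice and is no separate result.

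The heights behind these ratios were low. Apart from CAPSL, the 6 members with a ratio had 9 to 12 tags in sh-ctrl and 32 to 39 in sh-VNGD. The median gene had 75 and 73 tags. Genes at least 2-fold above had medians of 13 and 32 tags, and the members were of that kind. For DCC, DDC, FLG2 and MAP1S the sh-ctrl peak had a −log10 q under 5, and with peaks of 5 or more only, these 4 would also have counted as found in sh-VNGD only. By rank of ratio among genes with at least 30 tags in either library, TP63 was last of the members, and 10 other genes stood at or above it. Just outside were LOC102725023, with the same 11 and 32 tags as TP63, and HIC2 at 1.52. Among genes called with sh-VNGD alone, ZNF665 with 48 tags and JAG2 with 44 were not members.

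Few genes related to the members by family or pathway differed by 2-fold. Of 89 genes listed, 87 were matched, 56 had a ratio, 34 of these lay above the median of all genes, 21 below and 1 was equal. The median relative log2 ratio was 0.04 against 0 for all genes by construction. At least 2-fold above were 2, FLG and the basal keratin gene KRT5, and 1, DHX32, was at least 2-fold below, against 1.77% and 0.589% of all genes. With sh-VNGD alone 6 of the 87 had a peak, and with sh-ctrl alone 4, against 4.93% and 2.93% of all genes.

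For the axon guidance genes beside DCC, 8 of 9 with a ratio lay above the median, none by 2-fold, and 5 of 9 did so by fold enrichment. The highest was the netrin receptor gene UNC5A, with 16 tags in sh-ctrl against 27 in sh-VNGD (0.75, −0.19 to 1.75), and the lowest UNC5C, with 72 and 56 (−0.36). Among genes of amine synthesis and breakdown beside DDC, 5 of 7 lay above it (6 by fold enrichment), from SLC18A1, a vesicle transporter gene, at 0.68 down to GCH1, which makes a cofactor of the pathway, at −0.13. For TH, TPH1 and PNMT, all enzymes of the pathway, peaks of 17, 15 and 16 tags were called with sh-VNGD alone, and for MAOB, which degrades amines, 1 of 32 tags with sh-ctrl alone.

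In the skin barrier list beside FLG2, 3 of 11 genes had a ratio. FLG stood at 1.25, SPRR1B at 0.04 and IVL, the involucrin gene, had 23 tags in each library. For TCHHL1 and CASP14 peaks of 8 and 15 tags were called with sh-ctrl alone, for CRNN 1 of 16 tags with sh-VNGD alone, and 5 genes had none. Among the p63 family and squamous targets, 4 of 6 lay above the median, against 3 by fold enrichment. KRT5 had 10 tags in sh-ctrl against 20 in sh-VNGD (1.00, −0.16 to 2.26) and ITGB4, a hemidesmosome integrin gene, 155 and 136 (−0.19). For KRT14 and JAG2 peaks of 11 and 44 tags were called with sh-VNGD alone, and for TP73 1 of 16 with sh-ctrl alone.

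In the other lists 1 gene was 2-fold from the median. The 7 pentose phosphate genes with a ratio ran from TKT at −0.33 to TALDO1 at 0.02, with RPE, the parent of RPEL1, at 120 and 113 tags. DEAH-box helicase genes ran from DHX32 at −1.15 (−1.59 to −0.72), with 144 tags in sh-ctrl against 65 in sh-VNGD, to DHX40 at 0.42. Of the interleukin-2 and interleukin-15 receptor genes, all 6 with a ratio lay above the median, from IL15RA at 0.01 to IL15 at 0.36, against 5 by fold enrichment, and IL2RA, IL2RG and JAK3 had no gene-end peak. STAT5A and STAT5B share 1 region of 27 and 28 tags, so the 6 genes stand for 5 regions. The MAP1 family ran from MAP1A and LRPPRC, both at −0.14, to MAP1B at 0.04. Genes of N-acetyl amino acid metabolism ran from ACY1 at −0.42 to GGT1 at 0.74, and the calcyphosine family from CAPS2 at −0.21 to CAPS at 0.16.

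Markers of the labelled cells and of other cell types were read by the same gene-end rule. Of 10 osteosarcoma and mesenchymal markers, 5 had end peaks in both libraries, 2 with sh-VNGD alone and 3 (RUNX2, SPARC and VIM) in neither, and their summed pileup was 265 tags in sh-ctrl against 237 in sh-VNGD. Of 10 epithelial and keratinocyte markers, 9 had a peak in both, with sums of 1041 and 1020 tags, in which the region shared by KRT8 and KRT18, of 166 and 174 tags, is counted for each gene. EPCAM, CDH1, GRHL2 and ESRP1 had 108 to 158 tags in either library, while KRT5 and OVOL1 had 10 to 26. The 5 osteosarcoma and mesenchymal ends with a peak in both had 11 to 94. The epithelial list thus had more and taller end peaks than the list for the labelled cells, and the cell label was not tested. Of 10 lymphoid markers 3 had a peak in both (247 and 207 tags), of 10 neuronal markers 6 (382 and 366) and of 10 liver and kidney markers 2 (87 and 169). Each sum includes markers with a peak in 1 library only, of which the liver and kidney list had 3 with sh-VNGD alone. An accessible gene end is not expression, so these counts do not identify the cells, and the part of any other cell type in the members' values was not tested.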

How the data were processed

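ATAC-seq was available from U2OS cells as 1 library per group, sh-ctrl and sh-VNGD, taken from the labels. Per the file headers, the authors called peaks on each library separately with MACS 2.1.0.20150731, without a control, with tags shifted by 100 bp and extended to 200 bp, 1 tag kept per position and a q cutoff of 0.05. Per the submitters' processing notes, Bowtie2 2.2.5, MACS2 2.1.2, deepTools and the builds hg38 and GRCh38.p13 were used. Alignment filters are not given in the sources used here. The deposited pileup is a signal, unscaled for depth. The deposited fold enrichment (a ratio) and −log10 q and p values are the authors' own per peak. Kept tags numbered 22931980 (sh-ctrl) and 31326715 (sh-VNGD).

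Peaks on chromosomes 1 to 22, X and Y that overlapped by 1 bp were merged into regions (Python 3.11.15, pandas 2.3.3, scipy 1.17.1). Genes and promoters came from RefSeq tables of GRCh38.p14, and coordinates are 1-based as deposited. A gene's end region was the strongest within 1000 bp of the outer bound with the higher summed signal. The ratio used the highest pileup of each library, with exact Clopper-Pearson 95% intervals. It was tried on simulated Poisson counts without peak calling or choice of extreme genes, so that trial does not cover intervals of chosen genes. The planned main value was the summed pileup, which counts a region more than once where it was split into several peaks, so it became the alternative. For the members both are equal. Tags within 10 kb were recovered as (pileup + 1)/fold − 1, scaled from 200 bp to 10 kb. Apart from peaks at the genome background, 99.98% came out within 0.01 of a whole number in each library. Promoter letters were checked on 2766 overlapping opposite-strand pairs, all of which matched.

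The members and lists were chosen with earlier results of these data known. Named were the members, the strongest and most different regions of each window (20 tags or more), genes in the windows that share the end region or differ 2-fold, the extremes of each related list, its genes with a peak in 1 library only, and the genes just outside the ranking. Other window genes and regions named were chosen after their values were seen. No p-values were computed.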

Additional observations from a re-analysis of the deposited data

How the results depend on the processing

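All 7 members with a ratio were at least 2-fold above the median of all genes, for which they were chosen. Own peaks of each library and summed pileups gave the members the same values. Centring on genes of mean pileup 30 or more shifted all ratios alike. These settings are therefore no separate check. Fold enrichment is computed from the same pileups by which the members were chosen, so it is no separate check either. By that measure all 7 were at least 2-fold above, from 1.08 at DDC to 1.66 at DCC. At 500 bp from the end 5 were left, since DDC and MAP1S lost their region, and at 2000 bp 6, FLG2 standing at 0.50. Among the members called with sh-VNGD alone, RPEL1 and IL2RB also had no gene-end region at 500 bp, while DQX1 kept its own. By tags within 10 kb 1 was at least 2-fold above, CAPSL at 1.27. Genome-wide, 246 genes were at least 2-fold above and 82 below, but 77 and 26 by fold enrichment and 22 and 45 by tags within 10 kb. With the summed pileup, the planned main value, the counts were 335 and 100. No gene-end ratio of a member changed sign, and 7 of 47 alternative values left the counting interval. The 47 include the settings that gave the members the same values.

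No member was regional with windows of 100 kb, a threshold of 1, peaks of −log10 q of 5 or more, a stricter overlap for shared peaks, or, both chosen after seeing the data, 50 kb around the end region, where TP63 had too few shared regions to be assigned, and tags without the summit. The count was 1 with windows of 25 kb (MAP1S), where FLG2 could not be assigned, and 1 each with all peaks of the window, a threshold of 0.3 and the median ratio of the shared regions (NAT8 in each). DCC became mixed with all peaks (0.70) and at 0.3, and TP63 at 0.3, while at 1 CAPSL alone stayed mixed. Genome-wide, 51 genes were regional, against 171 with all peaks, 381 at 0.3 and 23 at 100 kb. Regions of sh-VNGD only made up 26.3% of the windows with equal numbers of peaks (27.8% of all regions), against 38.5% with the full lists, of which that of sh-VNGD is longer. It was 35% to 40.1% otherwise. Of related genes, 33 lay above the median by fold enrichment. No library could be left out, with 1 per group. No paired analysis was possible because each group had 1 library. Apart from CAPSL, a sh-ctrl pileup of 9 to 12 tags leaves the members' ratios uncertain by about 1 log2 unit.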
